A study of Mus musculus with 6 samples.

Results

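Matrix proteases and their inhibitors were examined as a set of 36 genes among the 46078 genes counted in small intestinal adenomas. The set was listed by gene name, though with earlier results of these data known, and every one of the 36 symbols was found in the count tables. It holds 11 secreted matrix metalloproteinases (MMPs), 6 membrane-type MMPs, 4 tissue inhibitors of metalloproteinases (TIMPs), 2 ADAM and 5 ADAMTS proteases, 4 genes of the plasminogen system and 4 cathepsins. RNA came from adenomas of mice aged 18 weeks on a mixed C57BL6/SV129 strain. All mice were ApcMin/+: 1 copy of Apc, a brake on Wnt signaling, carries a premature stop in every cell, and such mice develop intestinal polyps. The 3 knockout mice were miR-34a/b/c-/-, and the 3 wild-type mice were miR-34a/b/c+/+. Each library held RNA of 3 tumors pooled from 1 mouse, so the mouse was the replicate and differences between tumors of a mouse were not measured. Whether the groups were littermates is not known here.

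Matrix proteases cut collagens, laminins, proteoglycans and cell surface proteins, and they are made as inactive precursors that other proteases activate. MMPs are zinc enzymes held in check by the TIMPs. The plasminogen system supplies plasmin, which activates several MMPs, and lysosomal cathepsins degrade matrix after uptake or secretion. In the intestine, stromal and inflammatory cells make many of these enzymes, whereas matrilysin (Mmp7) is a product of Paneth cells and of adenoma epithelium.

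Library totals ran from 26375035 to 38354355 counts. Mir34a, Mir34b and Mir34c had 0 counts in all 6 libraries, wild-type included, so those rows did not check the genotype labels. Epithelial markers were abundant in every library, with a summed level between 12402 and 18083 CPM (read counts relative to the total of their library, scaled by TMM factors). By their Xist and Y-linked transcripts, knockout mouse 2 and wild-type mouse 3 were the 2 males. The first principal component (40.8% of the variance) put knockout mice 1 and 3 (scores -53.0 and -49.2) at one end, wild-type mice 2 and 3 (58.5 and 16.9) and knockout mouse 2 (27.1) on the other side, and wild-type mouse 1 between them (-0.3).

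The question was whether transcripts of this set differ between adenomas with and without miR-34. The mature 5p strands carry a shared seed, bases 2 to 8, which pairs with matching letters in a 3′ UTR. The RefSeq sequences (GRCm38.p6) of miR-34a-5p and miR-34b-5p are shown with the seed in capitals.
miR-34a-5p (chr4:150068473-150068494, plus strand): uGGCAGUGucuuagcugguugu
miR-34b-5p (chr9:51103610-51103632, minus strand): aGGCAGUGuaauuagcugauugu
Both have the seed GGCAGUG.

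A match to this seed (CACTGCC, CACTGCCA or ACTGCCA on the sense strand of the longest annotated 3′ UTR) was present in 9 of 36 members, or 25.0%. Over all tested genes with an annotated UTR, 24.8% of 14723 had one, so the share in the protease set was close to the background. The median UTR length was 1649 bases in the members and 1306 bases in the tested genes, and the members had 0.139 matches per kilobase against 0.188. Counting only matches to bases 2 to 8, 5 members (13.9%) had one, against 18.4% of tested genes. These 5 are shown with the matching letters in capitals, as the strictest matches of the set (GENCODE M21, GRCm38, strand of the gene).
Mmp25 (chr17:23629997-23630026, minus strand): cccttcataatCACTGCCAcagggtaggga
Adamts4 (chr1:171259296-171259324, plus strand): tctgcctgcctCACTGCCccaaaccgcag
Mmp15 (chr8:95374913-95374941, plus strand): gcagttaagagCACTGCCtgctcttccga
Mmp17 (chr5:129607035-129607063, plus strand): gaagtctgatcCACTGCCgtttgcagcag
Mmp24 (chr2:155816116-155816144, plus strand): gcagctctagcCACTGCCcactggggcca
Mmp25, a membrane-anchored MMP of leukocytes, had a pair of matches, at bases 2639 and 2669 of a UTR of 3475 bases. The other 4 members with a match, Adam10, Adamts5, Ctsb and Ctsl, had only the ACTGCCA form. The sites of Mmp15 and Ctsl (chr13:64360032-64360060) lie outside the gene positions listed with the counts. Those positions are chr8:95352268-95374293 for Mmp15 and chr13:64363214-64370306 for Ctsl, so these UTRs belong to other gene models than the counted ones. Of the 9 members with a match, 6 had a log2 fold change above 0 and 3 below 0, and the median of these log2 fold changes, knockout over wild-type, was 0.16 (range -0.86 to 1.03). The 26 tested members without a match had a median of 0.46, with 23 above and 3 below 0. Over all tested genes the medians were 0.06 with a match and 0.01 without. The median UTR length was 3475 bases in the members with a match and 1080 bases in the tested members without. Over all tested genes it was 2395 and 1017 bases. The part of UTR length in the fold changes was not tested.

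None of the 35 members that passed the count filter passed the test between the genotypes. With edgeR's quasi-likelihood method over 17254 genes, 16 genes (0.0927%) passed an adjusted p of 0.05, 7 with higher levels in knockout tumors (0.0406%) and 9 with lower levels (0.0522%). The lowest adjusted p of a member was 0.790. At an unadjusted p below 0.05 there were 3 members, where 5.85% of all genes tested had such a p. Adamts9 and Plau were higher in knockout tumors, as were 3.27% of genes at this p, and Mmp28 was lower, as were 2.58%. DESeq2 and limma-voom also called 0 members. Below an unadjusted p of 0.05 there were 7 members with DESeq2, against 7.01% of genes, and 3 with limma-voom, against 5.99%. The groups did not overlap for 3 of 35 members, and for 11.2% of all genes tested. Adamts9 and Adam17 were higher in all 3 knockout libraries (5.86% of genes) and Mmp28 lower in all 3 (5.34%). Of the 35 members, 29 had a log2 fold change above 0, as did 51.1% of the tested genes. The median log2 fold change of the tested members was 0.42, against 0.01 over all tested genes. Without knockout mouse 3 the median was 0.17, without wild-type mouse 2 it was 0.20 and without wild-type mouse 3 it was 0.67.

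**Figure D1:**
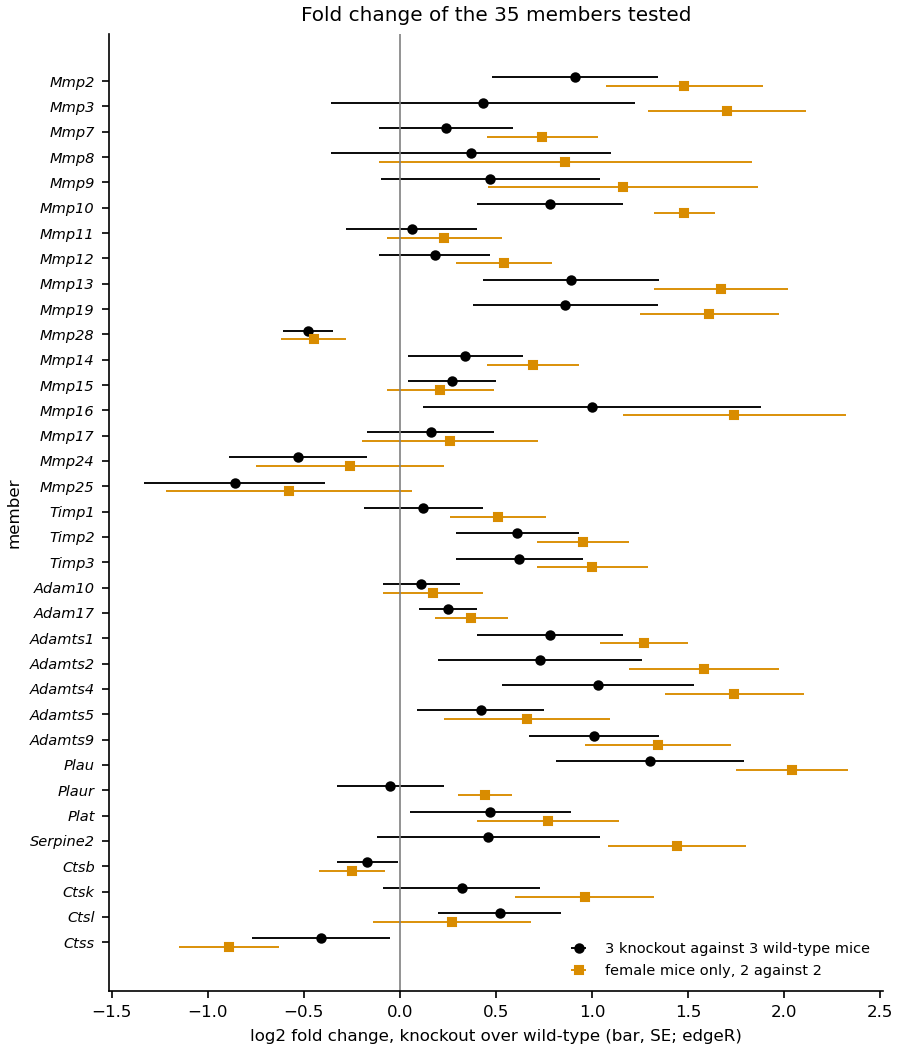
Fold change on the log2 scale (x axis, knockout over wild-type, bar for the SE, edgeR) of the 35 tested members (y axis, by role), in all 6 mice (black circles) and in the 4 female mice (orange squares). In all mice 29 members lie right of 0 and none passed the test, and in the female mice Mmp10 lies at 1.48 with an SE of 0.16.

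Of the 11 secreted MMPs, 10 had log2 fold changes above 0, with a median of 0.43, and none passed. Throughout, the 3 values of a group are those of mice 1, 2 and 3. Mmp2, the gelatinase A gene (ENSMUSG00000031740, mm10 chromosome 8, 92827328 to 92853417), had 52.6, 30.1 and 75.3 CPM in the knockout and 31.0, 14.8 and 38.3 CPM in the wild-type mice. The groups overlapped because knockout mouse 2 lay below wild-type mice 1 and 3. Its log2 fold change was 0.91 ± 0.43 (SE, adjusted p = 0.793, edgeR), and it was 0.55 without knockout mouse 3 and 0.60 without wild-type mouse 2. Mmp9, the gelatinase B gene of neutrophils and macrophages, had 16.1, 16.6 and 60.1 CPM in the knockout and 16.3, 17.8 and 33.0 CPM in the wild-type mice. Knockout mouse 3 and wild-type mouse 3 stood above the other 4 libraries, which lay between 16.1 and 17.8 CPM. Mmp11, a stromelysin-like gene of fibroblasts near tumor cells, ranged from 3.37 to 6.90 CPM, with means of 5.68 in knockout and 5.43 in wild-type tumors. Mmp19 ranged from 2.27 to 9.12 CPM, and its exons share up to 789 bases with the opposite-strand gene Tmem198b, so its counts are uncertain where strand was not used.

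Mmp28 was the member with the smallest unadjusted p and was lower in knockout tumors. Mmp28, or epilysin, is an MMP of epithelia (ENSMUSG00000020682, chromosome 11, 83440768 to 83463071). It had 22.8, 26.9 and 27.8 CPM in the knockout and 33.1, 36.3 and 38.8 CPM in the wild-type mice. All 3 wild-type libraries lay above all 3 knockout libraries. The difference was -0.48 ± 0.13 on the log2 scale (unadjusted p = 0.00743, adjusted p = 0.790, edgeR), so it did not pass over all genes. It stayed between -0.40 and -0.55 when each mouse was left out. Mmp28 shares up to 466 exonic bases with the opposite-strand gene 1700020L24Rik, which had 1270 counts over the 6 libraries against 6228 for Mmp28. Of the 10 epithelial markers, 9 had log2 fold changes below 0, with a median of -0.14 and 0 called, and their summed level was 12402 to 15920 CPM in the knockout and 13798 to 18083 CPM in the wild-type mice. Their part in the Mmp28 values was not tested.

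Mmp7 had the highest level per length among the secreted MMPs. It is the matrilysin gene (ENSMUSG00000018623, chromosome 9, 7692090 to 7699585), whose product activates Paneth cell defensins in the mouse. Its mean over the 6 libraries was 90.7 CPM per kilobase of exon, ahead of Mmp10 with 64.1, Mmp13 with 24.6 and Mmp2 with 12. The library values were 91.6, 65.0 and 159 CPM in the knockout and 65.6, 83.8 and 117 CPM in the wild-type mice. Knockout mouse 2 was the lowest and knockout mouse 3 the highest, so the knockout range enclosed the wild-type range. Mmp7 had a log2 difference of 0.24 ± 0.35 (adjusted p = 0.883, edgeR), which was -0.19 without knockout mouse 3, 0.06 without wild-type mouse 1, 0.50 without knockout mouse 2 and 0.49 without wild-type mouse 3. Paneth cell markers had a summed level of 1672, 1063 and 2164 CPM in knockout against 884, 816 and 897 CPM in the wild-type mice, and 7 of 7 were above 0 in log2 fold change without passing. Their part in the Mmp7 values was not tested.

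The gene of Mmp7 lies in a cluster of 10 MMP genes on chromosome 9, between bases 7272514 and 7699585 (mm10). In chromosome order these are Mmp13, Mmp12, Mmp1b, Mmp3, Mmp1a, Mmp10, Mmp8, Mmp27, Mmp20 and Mmp7, of which 6 belong to the protease set. They were expressed at very different levels. Mmp10, a stromelysin (ENSMUSG00000047562, 7502352 to 7510238), had 162, 94.2 and 162 CPM in the knockout and 64.1, 51.8 and 128 CPM in the wild-type mice. Mmp13, the main interstitial collagenase of rodents (ENSMUSG00000050578, 7272514 to 7283333), had 110.1, 65.4 and 80.6 CPM against 39.2, 20.8 and 77.8 CPM. For both genes the groups overlapped because wild-type mouse 3 lay above knockout mouse 2. Both genes were chosen after their values were seen. The log2 fold changes were 0.78 ± 0.38 for Mmp10 and 0.89 ± 0.46 for Mmp13, each with an adjusted p of 0.793 (edgeR).

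Lower levels were found for Mmp12, Mmp3 and Mmp8. Mmp12, the macrophage metalloelastase gene, ranged from 6.49 to 12.7 CPM. Mmp3, another stromelysin that activates other MMPs, had 7.79, 10.1 and 4.73 CPM in the knockout and 1.55, 2.30 and 12.9 CPM in the wild-type mice. Its highest library was the male of the wild-type group and its second highest the male of the knockout group. Mmp8, the neutrophil collagenase gene, had 23, 26 and 79 counts in knockout and 5, 43 and 45 counts in wild-type libraries. Wild-type mouse 1, which had the fewest Mmp8 counts, also had the lowest summed neutrophil markers. The sum was 4.04 CPM there, against 8.18 to 25.0 CPM in the other 5 libraries. S100a8, S100a9, Csf3r and Cxcr2 were lowest in that mouse, but Ly6g, Retnlg and Mpo were not. The part of neutrophils in the Mmp8 values was not tested.

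**Figure D2:**
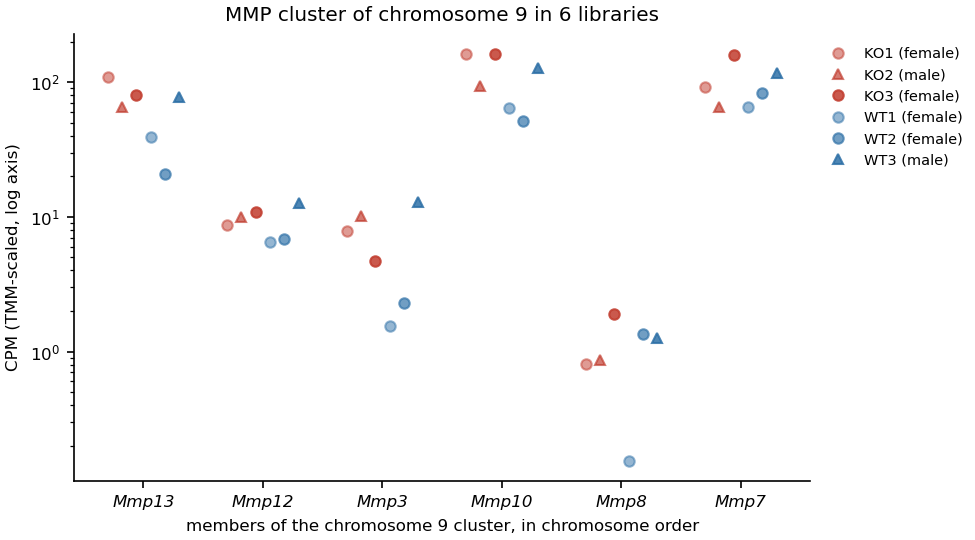
Levels of the 6 members of the chromosome 9 MMP cluster (x axis, chromosome order) in each library (y axis, TMM-scaled CPM on a log axis), knockout in red, wild-type in blue, males as triangles. Mmp10, Mmp7 and Mmp13 lie between 20.8 and 162 CPM, and Mmp8 between 0.155 and 1.90 CPM.

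Promoters of the cluster are shown because 5 of its members hold an AP-1 motif close to the start site. AP-1 is the Fos and Jun family dimer known for its role in MMP transcription. RefSeq promoters (GRCm38.p6, 250 bases before to 50 after a start) were found for 26 of 36 members, with 28 start sites. TGANTCA, searched on both strands, occurred in 6 of the 28 (21.4%) and in 7.81% of all 32851 promoters of the same length. All of these but Plaur lie in the cluster, so the share mostly describes neighboring genes of the same family and not the set at large. The stretches from 90 to 11 bases before the start, on the strand of the gene, follow with the motif in capitals.
Mmp13 (chr9:7272424-7272503, plus strand): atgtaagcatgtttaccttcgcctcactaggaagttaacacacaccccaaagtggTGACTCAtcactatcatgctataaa
Mmp12 (chr9:7347284-7347363, plus strand): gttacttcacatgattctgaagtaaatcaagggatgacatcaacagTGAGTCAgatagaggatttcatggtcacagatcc
Mmp3 (chr9:7445732-7445811, plus strand): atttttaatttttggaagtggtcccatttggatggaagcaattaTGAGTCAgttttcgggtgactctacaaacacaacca
Mmp10 (chr9:7502252-7502331, plus strand): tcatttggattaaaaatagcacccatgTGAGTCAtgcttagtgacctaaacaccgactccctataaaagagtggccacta
Mmp7 (chr9:7692000-7692079, plus strand): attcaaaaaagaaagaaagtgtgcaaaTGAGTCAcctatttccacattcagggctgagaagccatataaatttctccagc
Plaur (chr7:24462393-24462472, plus strand): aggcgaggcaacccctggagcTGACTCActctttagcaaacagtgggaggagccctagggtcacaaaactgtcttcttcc
The motif began 63 bases before the start in Mmp10 and Mmp7, 69 in Plaur, 46 in Mmp3, 44 in Mmp12 and 35 in Mmp13. The promoter entry of Mmp8 and a second entry each for Mmp12 and Mmp7 did not hold these letters. Of 3 other motifs searched on both strands, CTTTGAT (TCF/LEF) was in both overlapping entries of Mmp7 (7.14%) and in 3.73% of all promoters. These 2 hits are the same site, so only 1 of 26 member genes had it. CAGGAAGT (ETS) was in Timp1 and Timp4 (7.14%) and in 3.33% of all promoters. An NF-kB motif (3 G, any 5 bases and 2 C) was in 18 of 28 (64.3%) and in 50.8%. A match describes the letters only and is not a measured binding site.

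The membrane-type MMPs were led by Mmp14 and Mmp15. Mmp14, which activates pro-Mmp2 at the cell surface together with Timp2 (ENSMUSG00000000957, chromosome 14, 54431612 to 54441265), had 252, 144 and 305 CPM in the knockout and 211, 135 and 207 CPM in the wild-type mice. Its mean level per length was 35 CPM per kilobase. Knockout mouse 2 and wild-type mouse 2 were the lowest pair and the groups overlapped (log2 fold change 0.34 ± 0.30, adjusted p = 0.823, edgeR). The value was 0.09 without knockout mouse 3, 0.16 without wild-type mouse 2 and 0.60 without knockout mouse 2. Mmp15, a membrane-type MMP of epithelia, had a mean of 162 ± 19.9 CPM in knockout tumors against 135 ± 43.1 CPM in wild-type tumors (SD, n = 3 each). The other 4 had low counts. Mmp17, a GPI-anchored form, ranged from 1.57 to 3.12 CPM. Mmp24, known from neurons, had 23, 17 and 24 counts in knockout and 33, 20 and 41 counts in wild-type libraries, and it shares up to 637 bases with the opposite-strand gene BC029722, which had 3148 counts. Its log2 fold change of -0.53 ± 0.36 (adjusted p = 0.813, edgeR) was -0.35 without wild-type mouse 3. Mmp25 had 4, 8 and 15 counts against 11, 14 and 23 counts, with a log2 difference of -0.86 ± 0.47 (adjusted p = 0.801, edgeR). Mmp16 had 1 to 39 counts per library, and its lowest library was knockout mouse 2.

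The 3 tested TIMPs had log2 fold changes above 0, with a median of 0.61, and none passed. Timp2, the inhibitor that also takes part in the activation of Mmp2 (ENSMUSG00000017466, chromosome 11, 118301069 to 118355740), had 80.05, 38.9 and 79.8 CPM in the knockout and 51.6, 31.1 and 47.9 CPM in the wild-type mice. Knockout mice 1 and 3 lay above every wild-type library and knockout mouse 2 below 2 of them. This gave a log2 difference of 0.61 ± 0.32 (adjusted p = 0.793, edgeR). Timp3, the inhibitor bound to matrix that also blocks Adam17, had 29.2, 18.1 and 41.6 CPM against 21.8, 13.6 and 22.3 CPM (log2 fold change 0.62 ± 0.33, adjusted p = 0.793, edgeR, and 0.29 without knockout mouse 3). Timp1, an inducible and soluble inhibitor, had the highest mean level per length of the family at 14.9 CPM per kilobase, with Timp2 at 14.1 and Timp3 at 3.00. Timp1 had 18.1, 8.45 and 14.7 CPM in the knockout and 13.5, 9.53 and 14.8 CPM in the wild-type mice, and its log2 fold change of 0.12 turned to -0.13 without knockout mouse 1 and to -0.04 without wild-type mouse 2. It was 0.06 without knockout mouse 3, 0.38 without knockout mouse 2 and 0.26 without wild-type mouse 3. Timp4 was the 1 member that did not pass the count filter, with 0 to 8 counts per library.

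The summed level per length of the 17 MMPs was 334, 223 and 409 CPM per kilobase in knockout and 211, 183 and 312 in wild-type mice. For the 4 TIMPs the sums were 44.5, 21.8 and 42.2 against 31.2, 20.4 and 31.7 CPM per kilobase. The ratio of the sums was 7.49, 10.2 and 9.70 in knockout and 6.77, 8.96 and 9.83 in wild-type mice, so the groups overlapped. It describes transcripts and not enzyme activity, which was not measured.

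The sheddases Adam10 and Adam17 had highest-to-lowest ratios over the 6 mice of 1.65 and 1.62. Adam10, the sheddase that acts on Notch and E-cadherin, had 357, 361 and 418 CPM in the knockout and 429, 261 and 364 CPM in the wild-type mice, and its mean level per length was 74.3 CPM per kilobase. Its log2 fold change of 0.11 ± 0.20 (adjusted p = 0.914, edgeR) turned to -0.07 without wild-type mouse 2, and was 0.02 without knockout mouse 3 and 0.26 without wild-type mouse 1. Adam17, which releases TNF and EGF receptor ligands, had 71.6, 70.8 and 81.8 CPM against 68.5, 50.4 and 69.8 CPM. Its groups did not overlap, but the gap between knockout mouse 2 and wild-type mouse 3 was narrow, and the log2 fold change of 0.25 ± 0.15 did not pass (adjusted p = 0.805, edgeR) and was 0.11 without wild-type mouse 2. Adam17 shares up to 311 exonic bases with the opposite-strand gene Iah1.

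All 5 ADAMTS genes, whose products cut proteoglycans or trim procollagen, had log2 fold changes above 0, from 0.42 to 1.03, without any passing. Adamts9, a versican-cutting protease (ENSMUSG00000030022, chromosome 6, 92772699 to 92943492), had 10.5, 10.1 and 19.0 CPM in the knockout and 7.27, 4.40 and 7.89 CPM in the wild-type mice. Every knockout library lay above every wild-type library. The difference of 1.01 ± 0.34 on the log2 scale did not pass (unadjusted p = 0.0199, adjusted p = 0.793, edgeR), and was 0.64 without knockout mouse 3. Adamts4, an aggrecanase, had 12.4, 6.11 and 20.6 CPM against 6.09, 3.78 and 9.24 CPM, with knockout mouse 2 inside the wild-type range. Its log2 fold change of 1.03 ± 0.50 (adjusted p = 0.793, edgeR) was 0.53 without knockout mouse 3.

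Adamts1, a versican and aggrecan protease with the highest mean level per length of these genes (3.11 CPM per kilobase), had 21.3, 10.5 and 30.7 CPM in the knockout and 10.4, 11.1 and 14.9 CPM in the wild-type mice. Knockout mouse 2 again lay with the wild-type mice (log2 fold change 0.78 ± 0.38, adjusted p = 0.793, edgeR, and 0.38 without knockout mouse 3). Adamts2, the procollagen N-proteinase gene, ranged from 4.12 to 20.1 CPM, and Adamts5, another aggrecanase, from 0.870 to 1.90 CPM.

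Plau had the largest log2 fold change of the tested members. It encodes urokinase, the plasminogen activator of the cell surface (ENSMUSG00000021822, chromosome 14, 20836662 to 20843388). Plau had 81.7, 28.8 and 83.2 CPM in the knockout and 26.0, 14.3 and 38.3 CPM in the wild-type mice. Knockout mice 1 and 3 exceeded every wild-type library, whereas knockout mouse 2 lay between wild-type mice 1 and 3. The log2 fold change was 1.30 ± 0.49 (unadjusted p = 0.0329, adjusted p = 0.793, edgeR). Plaur, the urokinase receptor, had 50.1, 39.9 and 48.0 CPM in the knockout and 36.1, 36.4 and 70.7 CPM in the wild-type mice. Unlike for Plau, wild-type mouse 3 was the highest library, while knockout mice 1 and 3 again lay above wild-type mice 1 and 2. Plat, the tissue plasminogen activator (ENSMUSG00000031538, chromosome 8, 22757744 to 22782847), was the most abundant of the 4 per length, with 43.3 CPM per kilobase. It had 378, 156 and 406 CPM in the knockout and 315, 145 and 219 CPM in the wild-type mice (log2 fold change 0.47 ± 0.42, adjusted p = 0.823, edgeR). Leaving out 1 mouse at a time moved it between 0.23 (without knockout mouse 3 or wild-type mouse 2) and 0.80 (without knockout mouse 2), with 0.30 without knockout mouse 1 and 0.77 without wild-type mouse 1. Serpine2, the protease nexin that inhibits thrombin and plasminogen activators, had 41.5, 13.7 and 43.1 CPM against 21.2, 10.01 and 40.3 CPM.

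**Figure D3:**
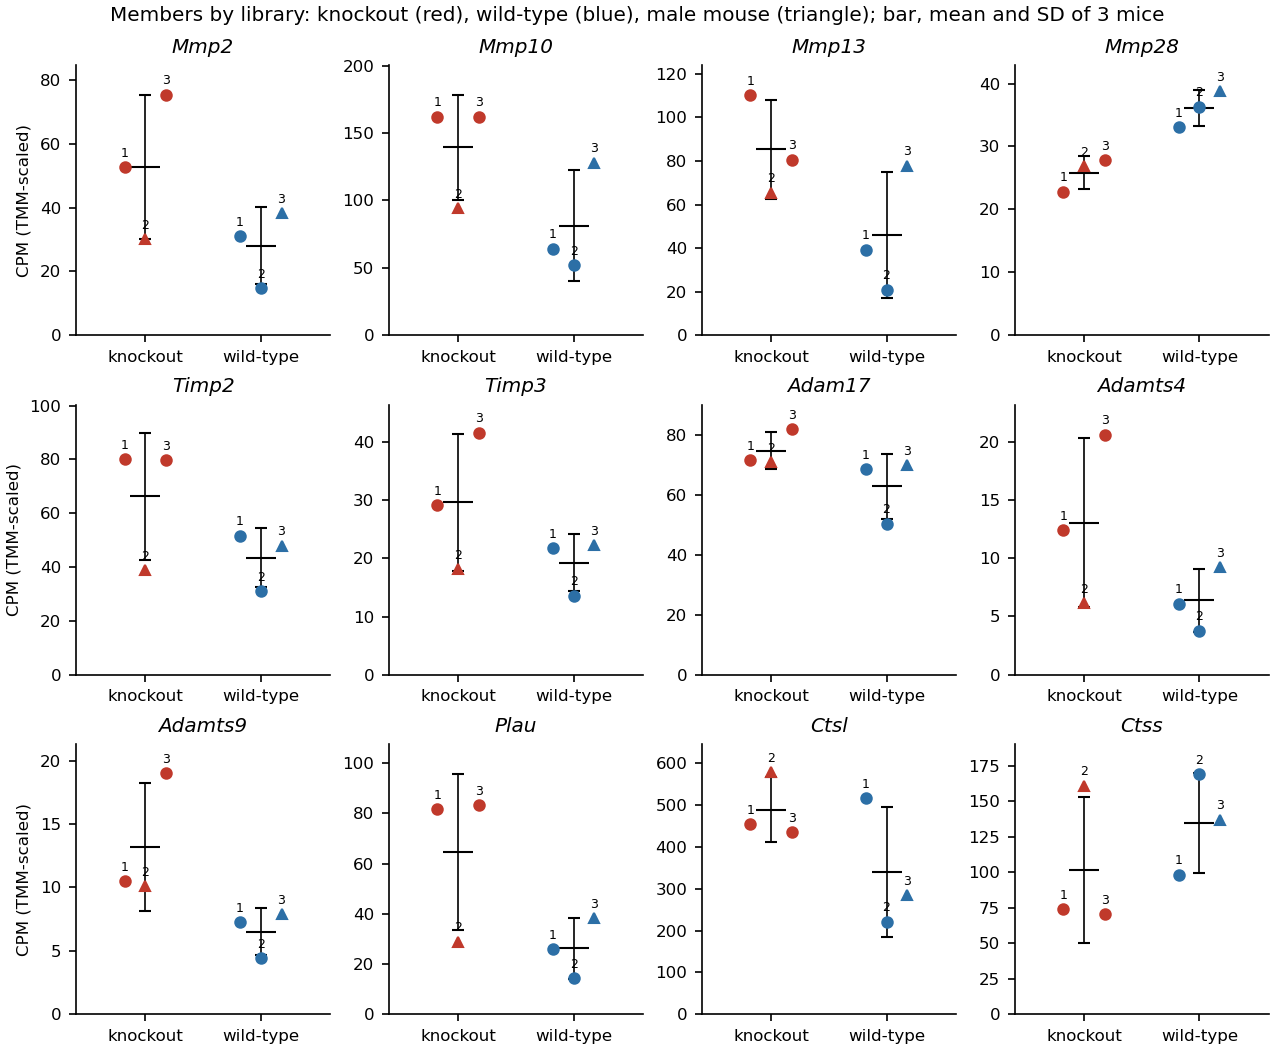
CPM (y axis, TMM-scaled, from 0) of 12 members in each knockout (red) and wild-type (blue) mouse, numbered by replicate, with the males as triangles and the mean and SD of 3 mice as a bar. For Mmp2, Timp2, Adamts4 and Plau, knockout mice 1 and 3 lie above the wild-type mice and knockout mouse 2 among them, and for Mmp28 the groups do not overlap.

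Of the cathepsins, Ctsb and Ctss showed another order of libraries. Ctsb (ENSMUSG00000021939, chromosome 14, 63122462 to 63145919), a lysosomal cysteine protease, had the highest mean level per length of all 36 members by GENCODE M21 exon lengths, at 129 CPM per kilobase. It had 692, 838 and 680.0 CPM in the knockout and 805, 830.2 and 855 CPM in the wild-type mice, and it shares up to 774 bases with the opposite-strand gene Fdft1. Ctss (ENSMUSG00000038642, chromosome 3, 95526786 to 95556403), the cathepsin that processes the invariant chain in antigen presenting cells, had 74.0, 161 and 70.3 CPM against 98.3, 169 and 137 CPM. In both genes knockout mice 1 and 3 were the lowest of all libraries and knockout mouse 2 lay in the wild-type range. The log2 fold changes were -0.17 ± 0.16 for Ctsb and -0.41 ± 0.36 for Ctss (adjusted p = 0.829 and 0.823, edgeR). The value for Ctss was -0.90 without knockout mouse 2 and -0.21 without knockout mouse 3 or without wild-type mouse 2, and -0.23 without knockout mouse 1. For Ctsb it was -0.27 without knockout mouse 2.

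Ctsl, another lysosomal protease, had 454, 578 and 435 CPM in the knockout and 517, 221 and 284 CPM in the wild-type mice (log2 fold change 0.52 ± 0.32, adjusted p = 0.805, edgeR), and its value was 0.94 without wild-type mouse 1 and 0.29 without wild-type mouse 2. Its mean level per length of 63.9 CPM per kilobase may be understated, because its M21 exons reach beyond the counted gene. The rank of Ctsl below Ctsb is therefore uncertain. Ctsk, the collagen-degrading cathepsin of osteoclasts and fibroblasts, ranged from 2.83 CPM in wild-type mouse 2 to 7.70 CPM in knockout mouse 3. Dendritic cell markers, which share the antigen presenting role of Ctss, had summed levels of 8.81, 14.7 and 10.7 CPM in the knockout and 14.9, 18.5 and 17.9 CPM in the wild-type mice, with 4 of 5 tested genes below 0 in log2 fold change. Macrophage markers did not separate the groups (117 to 181 CPM against 87.6 to 143 CPM). The part of these cells in the Ctss values was not tested, and in bulk RNA fewer cells of a type and less RNA per cell cannot be told apart.

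Across libraries, many members had their highest or lowest value in the same mouse. Knockout mouse 3 was the highest library for 19 of 35 members (54.3%), against 19.4% of all tested genes. Wild-type mouse 2 was the lowest for 19 of 35 (54.3%), against 20.7% of all tested genes. For 14 members (40.0%), among them Mmp2, Mmp10, Mmp14, Timp3, Adamts9, Plau, Plat and Ctsk, both held, as for 8.33% of tested genes. Ctsb, Ctsl, Ctss, Mmp28, Mmp15, Mmp8 and Mmp25 were among the 21 members for which they did not both hold. The 9 fibroblast markers had summed levels of 1371, 677 and 2524 CPM in the knockout and 968, 410.2 and 1265 CPM in the wild-type mice, with none at 0 and 7 of 9 above 0 in log2 fold change. From highest to lowest this is knockout mice 3 and 1, wild-type mice 3 and 1, knockout mouse 2 and wild-type mouse 2. Mmp2, Timp3 and Serpine2 had exactly this order, as did 0.591% of tested genes. Smooth muscle markers summed to 628, 546 and 524 CPM in the knockout and 471, 203 and 365 CPM in the wild-type mice. Endothelial markers summed to 362, 312 and 433 CPM against 292, 215 and 236 CPM. Both lists had 6 of 6 genes above 0, with 0 called. T cell markers had 5 of 5 below 0, and B and plasma cell markers 4 of 4. The part of fibroblasts or of these other cells in the protease values was not tested.

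**Figure D4:**
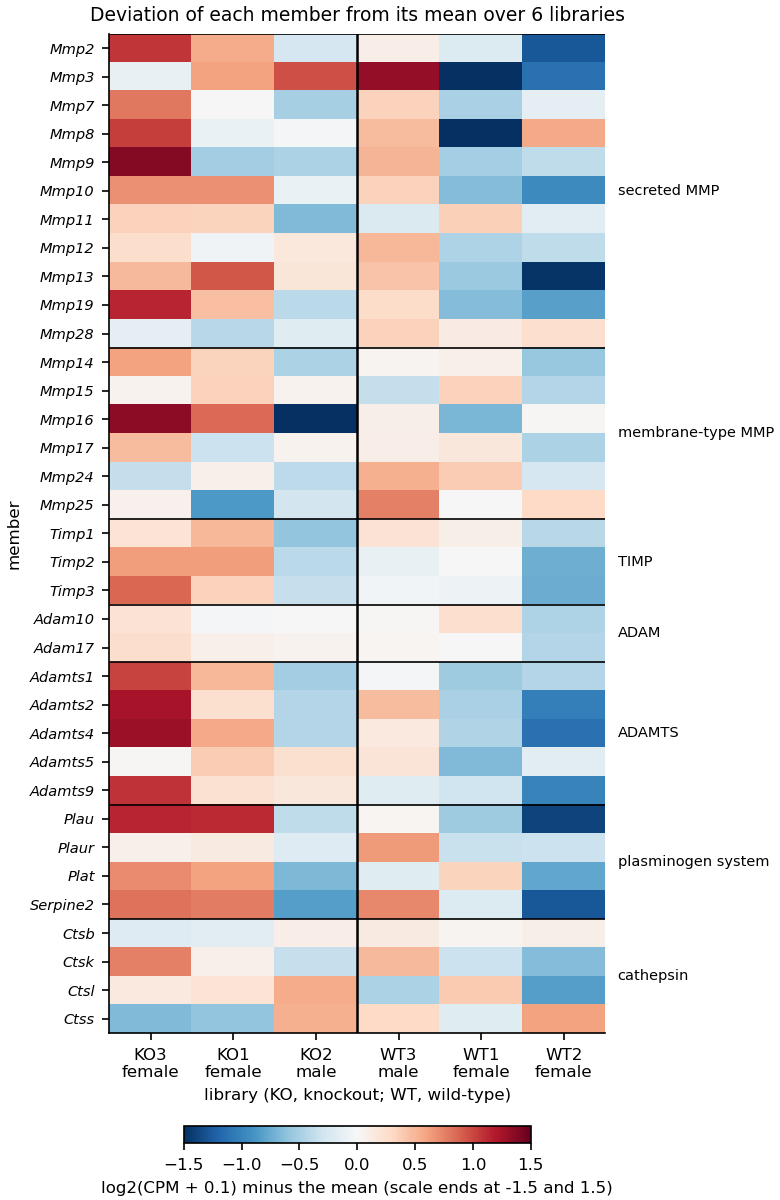
Deviation of each tested member (y axis, by role) from its own mean over the 6 libraries (x axis), as log2(CPM + 0.1), red above and blue below the mean. Knockout mouse 3 is the highest library for 19 of 35 members and wild-type mouse 2 the lowest for 19 of 35.

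**Figure D5:**
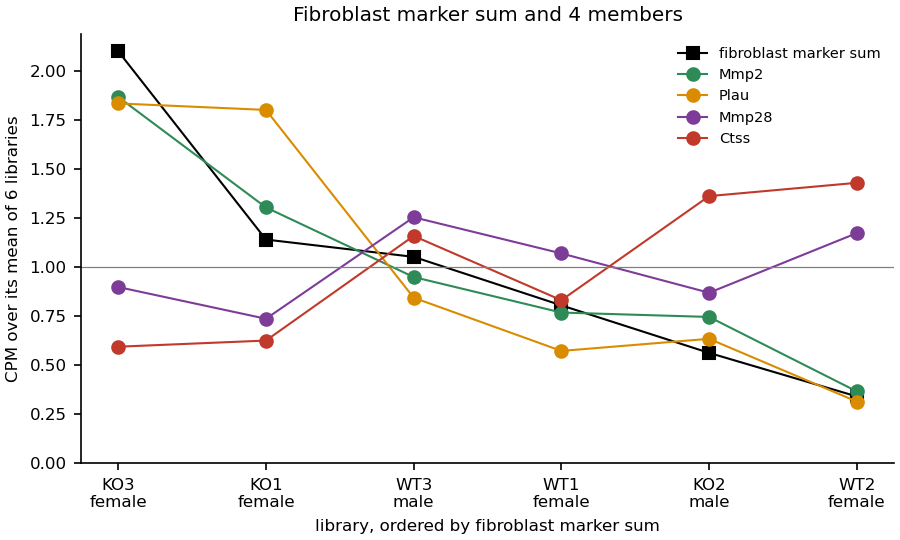
Summed CPM of 9 fibroblast markers (black squares) and CPM of Mmp2, Plau, Mmp28 and Ctss (circles), each divided by its mean over the 6 libraries (y axis), with libraries ordered by the marker sum (x axis). Mmp2 follows the order of the marker sum, and Ctss is lowest in the 2 libraries where the sum is highest.

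Because the 2 males were knockout mouse 2 and wild-type mouse 3, values were also compared within each sex. In the females, both knockout libraries were above both wild-type libraries for 23 of 35 members, against 25.7% of tested genes, and below both for 3 of 35 (Mmp28, Ctsb and Ctss), against 25.5%. In the single male pair, the knockout was lower for 29 of 35 members, against 50.2% of tested genes, and higher for 6, against 49.8%. Both held together, higher in female and lower in male knockouts, for 20 of 35 members and for 14.3% of tested genes. Plau had a ratio of mean CPM, knockout to wild-type, of 4.10 in females and 0.750 in the male pair. For Mmp10 the ratios were 2.79 and 0.736, for Mmp13 3.18 and 0.841, and for Adamts4 3.35 and 0.661. Mmp28 was lower in both, with ratios of 0.730 and 0.694, and Adamts9 higher in both, with 2.52 and 1.28.

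A fit to the 4 females alone, added after these values were seen, called 1 member among 17447 genes tested, where 0.441% of genes (77) passed, 27 of them (0.155%) with higher levels in knockouts. This was Mmp10, at 1.48 ± 0.16 on the log2 scale (adjusted p = 0.0236, edgeR), while Plau had 2.04 ± 0.29 (adjusted p = 0.0770, edgeR) and Adamts1 1.27 ± 0.23 (adjusted p = 0.0948, edgeR). At an unadjusted p below 0.05 there were 20 of 35 members, against 15.2% of tested genes. Of these, 18 were higher in knockouts, against 7.59% of genes, and Mmp28 and Ctss were lower. The difference between the sexes was tested as an interaction, and 0 of 35 members passed, with 7 genes (0.0406%) passing over all genes and a lowest member adjusted p of 0.154 for Mmp10 (edgeR). Unadjusted interaction p-values were below 0.05 for 18 of 35 members and for 9.55% of tested genes. With 1 male per group, sex and the individual mouse cannot be told apart, and with a sex term in the fit 0 members passed (lowest adjusted p = 0.695 for Adamts9, edgeR).

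Another list held 72 genes, mostly of the same families, their activators and inhibitors. Of these, 60 passed the count filter and 0 were called, with 41 above and 19 below 0 in log2 fold change and a median of 0.20. Lox, Hpse and Serpinh1 of this list encode no such protease, activator or inhibitor, and they were above 0 (0.84, 0.20 and 0.66). At an unadjusted p below 0.05 there were 3 of 60, against 5.85% of all genes tested. The groups did not overlap for 6 of 60, against 11.2%. The 3 genes with such a p are named here after their values were seen. Adam12, a protease of myofibroblasts, had 12.6, 7.50 and 11.7 CPM in the knockout mice and 2.92, 1.86 and 5.93 CPM in the wild-type mice, with no overlap (log2 fold change 1.57 ± 0.45, adjusted p = 0.793, edgeR). Reck, a membrane-anchored MMP inhibitor, had 3.14, 2.41 and 3.98 CPM against 1.86, 1.26 and 1.51 CPM (log2 fold change 1.04 ± 0.31). Ctse, an aspartic protease of gut epithelium, had 614, 597 and 629 CPM against 916, 848 and 712 CPM (log2 fold change -0.43 ± 0.16). Reck and Ctse both had an adjusted p of 0.793 (edgeR).

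Genes of matrix proteins that these enzymes cut were above 0 in log2 fold change in 22 of 22 cases, with a median of 0.81 and 0 called. Col1a1, Col1a2, Col3a1, Dcn and Lum of this list are also among the fibroblast markers. Their summed levels were 3560, 1984 and 5510 CPM in the knockout and 2287, 1186 and 2829 CPM in the wild-type mice, so knockout mouse 2 lay below wild-type mice 1 and 3. Lamb1, a laminin chain with the smallest p of this list, had 102, 75.2 and 165 CPM against 56.5, 35.5 and 69.2 CPM (log2 fold change 1.09, adjusted p = 0.793, edgeR).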

How the data were processed

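RNA sequencing libraries of 3 knockout and 3 wild-type mice were used, grouped by their titles. Each library has its own deposited table of whole-number counts, keyed by Ensembl gene. The submitters' processing notes name mm10, HTSeq 0.6.1 and TopHat2 2.1.0. Neither the strand setting nor the annotation release was stated in the sources used here. Symbols, exon lengths and 3′ UTRs came from GENCODE M21. Members were matched by gene ID. The gene positions listed with the counts equaled those of GENCODE M21 for 19 of 36 members, so the counted gene models differ from M21 for the rest.

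Genes were filtered with filterByExpr (17254 kept), scaled by TMM and compared with edgeR 4.0.16 (R 4.3.3, robust quasi-likelihood F-test, Benjamini-Hochberg over all genes, threshold 0.05). SE is the log2 fold change over the square root of F. CPM per kilobase divides by all exon bases of a gene in GENCODE M21, which understates genes with long, rarely used exons. It also understates genes whose M21 exons reach beyond the counted gene, as for Ctsl and Mmp15. Shared bases were found with BLAST 2.17.0 (95% identity, at least 100 bases). The result for 1 overlap is not reported here. The fit was tested on simulated counts. DESeq2 1.42.0 and limma 3.58.1 were alternatives, with other scalings and filters, a replicate block, a sex term and each mouse left out.

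Members, lists and tests were chosen with earlier results of these data known. Values for every library are given, per role, for the 2 members with the smallest p and the one with the highest level per length, and for those whose groups did not overlap at a log2 fold change of at least 1. Other members were added for their role in the gene cluster or the plasminogen and gelatinase groups, after their values were seen. A count of 0 allows up to 3 counts. The p-values of the main fit rest on 3 mice per group, and those of the female fit on 2 per group. The interaction rests on 1 male per group, and a fit without 1 mouse has 2 mice in that group.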

Additional observations from a re-analysis of the deposited data

How the results depend on the processing

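The count of 0 members called held under the other alternatives run (other size factors, filters, DESeq2, limma-voom, non-robust fitting, sex term, each mouse left out), and the 1 exception was the added fit to female mice, which called 1. Over all genes 16 were called, 110 by DESeq2 and 77 in female mice, and between 9 and 41 when each mouse was left out. The 3 members below an unadjusted p of 0.05 became 1 without knockout mouse 3 (3.07% of genes) or wild-type mouse 2 (3.06%), 13 without knockout mouse 2 (17.9%) and 10 without wild-type mouse 3 (5.91%). The members' median log2 fold change lay between 0.17 and 0.67 in the fits without 1 mouse, and was 0.77 in female mice. Of 302 recomputed log2 fold changes of the 19 members chosen by the naming rule, 4 changed sign. These were Timp1 (-0.13 without knockout mouse 1 and -0.04 without wild-type mouse 2, up to 0.38), Mmp7 (-0.19 without knockout mouse 3, up to 0.50) and Adam10 (-0.07 without wild-type mouse 2, up to 0.26), with the highest value of each without 1 mouse given last. miR-34 matches were found in 5 members when only pairing to bases 2 to 8 counted and in 10 when any annotated UTR counted. With the replicate number as a block (replicate block), 14 genes and 0 members passed, and 14 members had an unadjusted p below 0.05, against 9.46% of genes (lowest adjusted p = 0.130, Plau, edgeR). Deviations of same-numbered mice correlated at 0.22, 0.27 and 0.08, and knockout mouse 3 correlated best with wild-type mouse 1 (0.18), so the numbers were not taken as pairs. Adamts5, Mmp16, Mmp24, Mmp25, Mmp8 and Timp4 had under 80 counts in every library, so their values are limited by depth.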
